A study of Homo sapiens with 16 samples.

Results

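The genes of the NF-kB transcription factors and of their feedback inhibitors were read in MDA-MB-231 cells with and without BMAL1. Members were the 9 genes NFKB1, NFKB2, REL, RELA and RELB, which encode the 5 subunits, and NFKBIA, NFKBIB, NFKBIE and TNFAIP3, which encode 4 inhibitors. They were taken by gene symbol from the 60658 genes of each table, and each symbol occurred once per table. MDA-MB-231 is an established triple-negative human breast cancer line, and BMAL1 (gene symbol ARNTL) encodes a transcription factor at the core of the circadian clock, which acts with its partner CLOCK. RNA-seq covered BMAL1 knockout (KO) and wild type (WT) cells, each given cisplatin, doxorubicin or tunicamycin or kept as control. Cisplatin crosslinks DNA, doxorubicin poisons topoisomerase on DNA, and tunicamycin blocks N-glycosylation and stresses the endoplasmic reticulum, the last serving the study as a negative control. The 8 groups had 2 biological replicates each, 16 samples in all, and the authors' tables hold 1 value per group. The sources used here give no dose, no time and no statement of whether the KO cells are 1 clone.

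NF-kB is a family of dimers built from the 5 subunits. RELA, REL and RELB carry the domain that activates transcription, while NFKB1 and NFKB2 encode the long precursors p105 and p100, which are processed to p50 and p52. In resting cells the IkB proteins encoded by NFKBIA, NFKBIB and NFKBIE hold the dimers in the cytoplasm. A signal through the IKK kinases leads to the destruction of IkB, the dimers enter the nucleus, and among the genes they switch on are NFKBIA, NFKBIE, TNFAIP3, NFKB1, NFKB2, REL and RELB, so the pathway limits itself. TNFAIP3 encodes A20, a ubiquitin-editing enzyme that shuts down signalling upstream of IKK.

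The promoters of 4 members are shown because they hold the sequence that the family's own dimers bind, and because one of them also holds the E-box that BMAL1 and CLOCK bind. Each line gives the 250 bases before an annotated transcript start in RefSeq (GRCh38.p14), 5′ to 3′ on the strand of the gene. Capitals mark matches to the kappaB consensus, searched on both strands, and in TNFAIP3 also the E-box CACGTG, which reads the same on both strands. The windows are chr14:35404750-35404999 on the minus strand for NFKBIA, and on the plus strand chr19:38899719-38899968 for NFKBIB, chr6:137867009-137867258 for TNFAIP3 and chr4:102501109-102501358 for NFKB1.
NFKBIA: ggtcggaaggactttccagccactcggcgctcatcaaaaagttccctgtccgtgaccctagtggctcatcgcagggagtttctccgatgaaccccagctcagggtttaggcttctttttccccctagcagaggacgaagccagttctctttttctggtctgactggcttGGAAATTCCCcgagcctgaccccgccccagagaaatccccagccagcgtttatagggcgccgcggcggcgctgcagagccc
NFKBIB: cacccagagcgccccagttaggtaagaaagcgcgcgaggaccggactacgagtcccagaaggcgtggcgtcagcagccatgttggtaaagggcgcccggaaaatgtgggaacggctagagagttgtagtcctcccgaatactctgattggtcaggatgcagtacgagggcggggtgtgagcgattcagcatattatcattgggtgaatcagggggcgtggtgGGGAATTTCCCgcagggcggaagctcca
TNFAIP3: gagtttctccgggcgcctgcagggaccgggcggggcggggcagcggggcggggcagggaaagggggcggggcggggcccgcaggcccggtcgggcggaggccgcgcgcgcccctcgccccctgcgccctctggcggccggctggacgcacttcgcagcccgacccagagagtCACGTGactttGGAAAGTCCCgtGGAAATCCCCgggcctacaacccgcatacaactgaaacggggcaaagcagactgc
NFKB1: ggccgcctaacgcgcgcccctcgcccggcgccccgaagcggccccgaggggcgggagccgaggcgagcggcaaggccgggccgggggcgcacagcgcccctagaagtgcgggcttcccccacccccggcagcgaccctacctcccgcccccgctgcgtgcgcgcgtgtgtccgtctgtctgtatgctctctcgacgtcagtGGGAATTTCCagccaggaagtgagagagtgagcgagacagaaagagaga

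The NFKBIA match begins 81 bases before the start, the NFKB1 match 49 bases before it and the NFKBIB match 28 bases before it. TNFAIP3 holds kappaB matches at 67 and 55 bases before its start, with the E-box just ahead of them at 78 bases. REL has GGGAAATTCCC at 47 bases before its start. NFKB2 has GGGAATTCCCC at 107 and GGGGCTTTCC at 78 bases before one start, and GGGGCTTCCC at 176 and GGGACTTTCC at 21 bases before another. NFKBIB has a further match, GGGGGGCCCC, 39 bases into the transcript. In GGGAATTCCCC of NFKB2, GGGAAATTCCC of REL and GGGAATTTCCC of NFKBIB, 2 overlapping matches run together. Promoter windows of 300 bases were found by symbol for 7 of the 9 members, as 12 windows, and those of RELB and NFKBIE were not used here. A kappaB match stood in 6 of these 7 genes, all but RELA, against 13.3% of the 27305 genes that have a window. By window it stood in 7 of 12, against 11.3% of all 35116. The E-box stood in 1 of the 7 genes, TNFAIP3, against 8.77% of all genes. All distances are from the RefSeq start of the window and depend on that choice. By the gene starts of GENCODE v29, the matches of NFKBIA and NFKB1 and the E-box of TNFAIP3 lie upstream of the gene. The kappaB matches of TNFAIP3, REL, NFKB2 and NFKBIB then lie within the gene. A match is a run of letters and no measurement of binding.

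**Figure D1:**
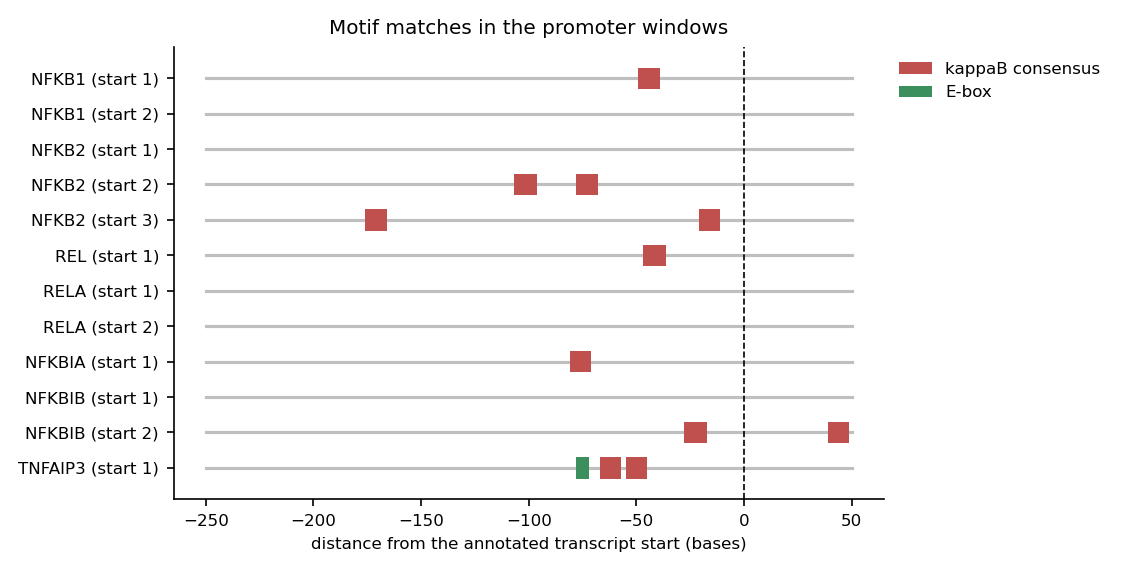
Positions of kappaB matches (red) and of the E-box (green) in the 12 promoter windows of the members, as distance in bases from the annotated transcript start (dashed line). All kappaB matches but 1 lie upstream of the RefSeq start of their window, and the only E-box lies 78 bases before that of TNFAIP3.

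The targeted gene and the cell identity were read first. ARNTL stood at 0.941 FPKM in KO cells against 1.26 in WT cells in cisplatin, at 0.474 against 1.31 in doxorubicin, at 2.24 against 3.25 in tunicamycin and at 0.889 against 5.67 in control. FPKM, the unit of all levels here, counts fragments relative to transcript length and to the size of the library. Calls below are those pairs that were tested and have a deposited q-value of at most 0.05. In the authors' deposited tables ARNTL was called lower in KO cells in control (q = 0.000213) and doxorubicin (q = 0.00509), and not in cisplatin (q = 0.467) or tunicamycin (q = 0.0810). All 6 markers of MDA-MB-231 cells were at 1 FPKM or more in all 8 groups, with sums of 3453 to 7844 in KO groups and 5007 to 7764 in WT groups. The RNA protocol in the labels speaks of fibroblasts, and of 6 fibroblast markers 2 reached 1 FPKM in any group while DCN was at 0 in all 8. The 2 were FBLN1, at 2.06 to 25.3 FPKM over the groups, and COL1A1, at 0.152 to 9.70. The fibroblast sum was 9.02 to 31.1 FPKM in KO groups and 2.22 to 18.3 in WT groups. The luminal sum, with 4 of 7 markers reaching 1 FPKM, was 34.6 to 189 in KO groups and 63.5 to 385 in WT groups, with PGR at 0 throughout. KRT19, at 24.9 to 354 FPKM, made up most of the luminal sum in every group. ERBB2 was at 7.11 to 25.5 FPKM, EPCAM at 1.03 to 6.33 and GATA3 at 0.111 to 5.48. The leukocyte sum, with 2 of 6 markers reaching 1 FPKM, was 172 to 435 in KO groups and 64.9 to 236 in WT groups. It was nearly all CD68, and the leukocyte marker PTPRC never exceeded 0.0135 FPKM. The endothelial sum, with 1 of 4 markers reaching 1 FPKM, was 1.76 to 10.7 in KO groups and 0.397 to 0.951 in WT groups. That marker was PECAM1, at 1.09 to 10.3 FPKM in KO groups and 0.154 to 0.305 in WT groups. CDH5 never exceeded 0.246 FPKM, VWF 0.0316 and KDR 0.614. These sums move with genotype, and their part in the results below was not tested.

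The 9 members spanned a wide range of levels. By the mean over the 8 groups, NFKB2 (54.3 FPKM), RELA (48.8) and NFKBIB (41.2) were the most abundant, and TNFAIP3 (2.20) and REL (0.647) the least. Between them came NFKBIA (18.0), NFKB1 (13.2), NFKBIE (12.8) and RELB (10.7). FPKM is per length, so these levels can be set side by side, but with 1 value per group no spread over samples is known and neighbours in the order cannot be told apart by a test. REL was the lowest member in all 8 groups. In both doxorubicin groups NFKBIB and NFKB2 were the 2 most abundant members and all others stood under 10 FPKM.

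**Figure D2:**
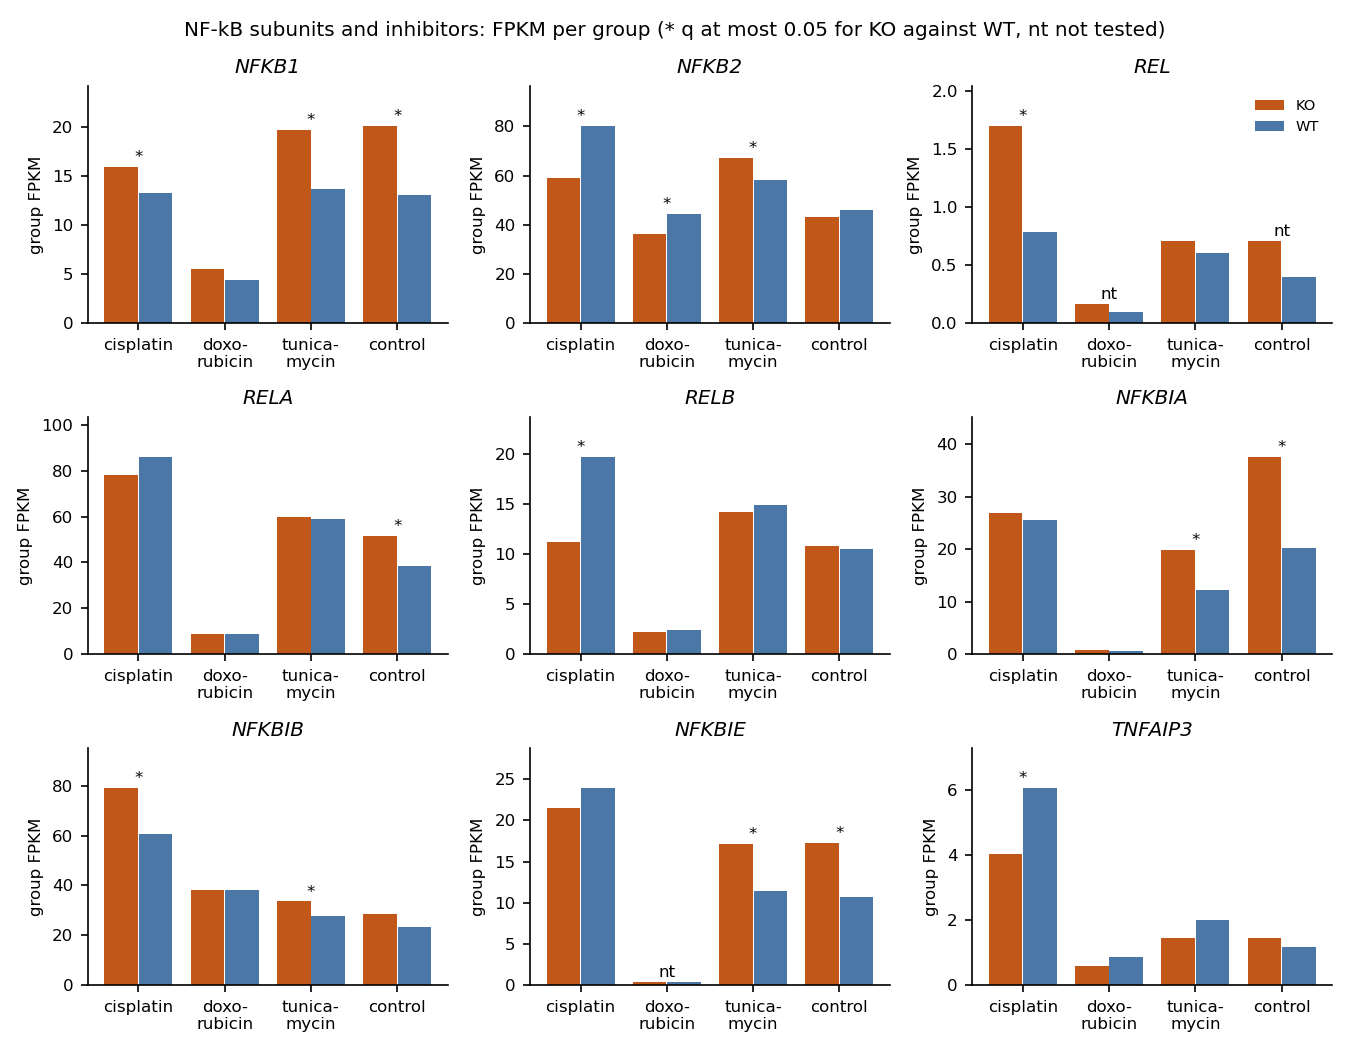
Group FPKM of each member in KO cells (orange) and WT cells (blue) under the 3 drugs and control, on axes that start at 0 and differ between panels. An asterisk marks a KO against WT difference called by the authors' test and nt marks a pair that was not tested, and within each genotype the doxorubicin bar is the lowest of every panel except that of NFKBIB.

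Members differed in how far their level ranged over the groups. NFKBIA, the IkB that is resynthesised fastest after a signal, had its lowest value of 0.489 FPKM in WT cells on doxorubicin and its highest of 37.7 in KO control cells, a range of 77.1-fold. NFKBIE ranged 69.1-fold, between 0.347 FPKM in WT cells on doxorubicin and 24.0 in WT cells on cisplatin. The third IkB, NFKBIB, ranged only 3.43-fold, between 23.1 FPKM in WT control cells and 79.3 in KO cells on cisplatin. Among the subunits the range was 17.5-fold for REL, 9.95-fold for RELA, 8.95-fold for RELB, 4.55-fold for NFKB1 and 2.22-fold for NFKB2. TNFAIP3 ranged 10.5-fold. The p100 gene and one IkB gene thus varied least over the groups.

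This shifted the make-up of both families. Of the summed FPKM of the 3 IkB genes, NFKBIA made up 21.1% in KO and 23.1% in WT cells on cisplatin, 2.13% in KO and 1.25% in WT cells on doxorubicin, 28.1% in KO and 23.8% in WT cells on tunicamycin, and 45.2% in KO and 37.3% in WT control cells. NFKBIB made up 62.1% in KO and 55.1% in WT cells on cisplatin, 96.9% in KO and 97.9% in WT cells on doxorubicin, 47.6% in KO and 54.0% in WT cells on tunicamycin, and 34.0% in KO and 42.9% in WT control cells. On doxorubicin, then, nearly all IkB transcript was NFKBIB in both genotypes, and KO control cells were the only group in which NFKBIA exceeded NFKBIB. Of the subunit sum, NFKB2 made up 68.6% in KO and 73.7% in WT cells on doxorubicin, against 34.3% in KO and 42.5% in WT control cells. RELA made up 16.4% in KO and 14.7% in WT cells on doxorubicin, against 40.7% in KO and 35.4% in WT control cells. REL never exceeded 1.03% of the subunit sum. The IkB sum divided by the subunit sum was 0.771 in KO and 0.550 in WT cells on cisplatin, 0.744 in KO and 0.649 in WT cells on doxorubicin, 0.437 in KO and 0.353 in WT cells on tunicamycin, and 0.659 in KO and 0.499 in WT control cells. It was above the WT value in the KO group of each treatment, with no error to set it against.

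**Figure D3:**
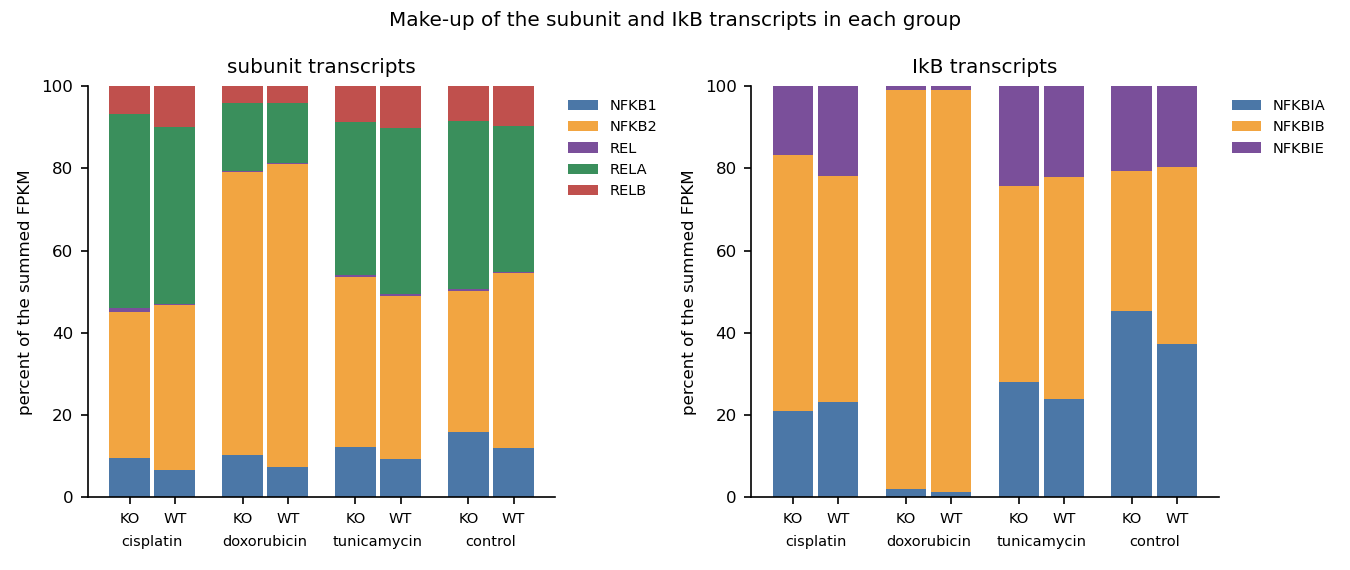
Share in percent of the summed FPKM that each subunit gene (left) and each IkB gene (right) made up in KO and WT cells under each treatment. NFKB2 and NFKBIB fill most of the doxorubicin bars, at 68.6% and 96.9% in KO cells and 73.7% and 97.9% in WT cells.

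The effect of BMAL1 loss without a drug was asked by KO against WT control cells. Of the 8 members tested, 4 were called higher in KO cells, against 22.7% of the 12978 genes tested, and 0 were called lower, against 21.1%. By the authors' Cuffdiff test 0 members were lower at an unadjusted p under 0.05 either. The smallest q of that table, 0.000213, is shared by 3044 genes. The median log2 ratio of KO over WT over the 9 members was 0.42, against 0.01 over all tested genes. The called members were NFKBIA, NFKBIE, NFKB1 and RELA. NFKBIA stood at 37.7 FPKM in KO and 20.1 in WT control cells, a log2 ratio of 0.90 in the authors' deposited table (q = 0.000213). NFKBIE, the IkB that favours dimers of RELA and REL, stood at 17.2 FPKM in KO and 10.7 in WT control cells, a log2 ratio of 0.69 in the authors' deposited table (q = 0.000407). Both of these inhibitors are targets of the dimers they bind. NFKB1 stood at 20.1 FPKM in KO and 13.0 in WT control cells, a log2 ratio of 0.63 in the authors' deposited table (q = 0.000213). RELA, the main activating subunit, stood at 51.4 FPKM in KO and 38.3 in WT control cells, a log2 ratio of 0.42 in the authors' deposited table (q = 0.00195). The alternative-pathway subunits were not called. NFKB2 had 43.3 FPKM in KO and 45.9 in WT control cells (log2 -0.08, q = 0.409 in the authors' deposited table). RELB had 10.8 in KO and 10.5 in WT control cells (log2 0.05, q = 0.839 in the authors' deposited table). NFKBIB had 28.3 FPKM in KO and 23.1 in WT control cells (q = 0.162 in the authors' deposited table), and TNFAIP3 had 1.44 in KO and 1.17 in WT control cells (q = 0.572 in the authors' deposited table). REL, at 0.712 FPKM in KO and 0.399 in WT control cells, was not tested by the authors.

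On cisplatin members were called in both directions, in shares near those of all genes. All 9 were tested, 3 were called higher in KO cells, against 25.4% of the 14253 genes tested, and 3 lower, against 24.2%. The members' median log2 ratio was -0.14, against 0.02 over all tested genes. Lower were RELB and NFKB2, the partners of the alternative pathway, and TNFAIP3. RELB stood at 11.1 FPKM in KO and 19.7 in WT cells, a log2 ratio of -0.82 in the authors' deposited table (q = 0.000167). NFKB2, whose p100 product holds RELB back until it is processed, stood at 58.9 FPKM in KO and 80.3 in WT cells, a log2 ratio of -0.45 in the authors' deposited table (q = 0.000167). TNFAIP3 stood at 4.03 FPKM in KO and 6.06 in WT cells, a log2 ratio of -0.59 in the authors' deposited table (q = 0.0367), and this call was lost at a q of 0.01. Higher were REL, NFKBIB and NFKB1. REL, the subunit best known from lymphocytes, stood at 1.70 FPKM in KO and 0.788 in WT cells, a log2 ratio of 1.11 in the authors' deposited table (q = 0.000167), at low levels in both. NFKBIB stood at 79.3 FPKM in KO and 60.8 in WT cells, a log2 ratio of 0.38 in the authors' deposited table (q = 0.000167). The p105 gene NFKB1 differed least among the 6, with 15.8 FPKM in KO and 13.2 in WT cells, a log2 ratio of 0.26 in the authors' deposited table (q = 0.00890). The inhibitors called without drug were not called here. NFKBIA had 27.0 FPKM in KO and 25.5 in WT cells (log2 0.08, q = 0.339 in the authors' deposited table). NFKBIE had 21.5 in KO and 24.0 in WT cells (log2 -0.16, q = 0.0664 in the authors' deposited table). RELA had 78.0 in KO and 86.3 in WT cells (log2 -0.14, q = 0.112 in the authors' deposited table).

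On doxorubicin a single member was called. Of the 7 members tested, 0 were called higher in KO cells, against 24.4% of the 11856 genes tested, and 1 lower, against 20.7%. By Cuffdiff 0 members were higher at an unadjusted p under 0.05. NFKB2 stood at 36.2 FPKM in KO and 44.4 in WT cells, a log2 ratio of -0.30 in the authors' deposited table (q = 0.000186). The members' median log2 ratio was -0.01, against 0.04 over all tested genes. RELA had 8.67 FPKM in KO and 8.89 in WT cells (q = 0.896 in the authors' deposited table), and NFKBIB had 38.0 in KO and 38.3 in WT cells (q = 0.913 in the authors' deposited table). Among the 7 tested members these 2 had the log2 ratios nearest to 0, at -0.04 for RELA and -0.01 for NFKBIB in the authors' deposited table. NFKB1 had 5.51 FPKM in KO and 4.42 in WT cells (q = 0.144 in the authors' deposited table), and RELB had 2.20 in KO and 2.42 in WT cells (q = 0.644 in the authors' deposited table). NFKBIA was under 1 FPKM in both genotypes, with 0.835 FPKM in KO and 0.489 in WT cells, and its log2 ratio of 0.77 was not called (q = 0.297 in the authors' deposited table). TNFAIP3 had 0.580 in KO and 0.868 in WT cells (q = 0.364 in the authors' deposited table). REL, with 0.168 FPKM in KO and 0.0976 in WT cells, and NFKBIE, with 0.371 in KO and 0.347 in WT cells, were not tested by the authors. Depth per library is not known, so it cannot be said how small a difference these low levels could have shown.

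On tunicamycin the members that differed were again higher in KO cells. All 9 were tested, 5 were called higher, against 27.2% of the 13896 genes tested, and 0 lower, against 22.1%. By Cuffdiff 0 members were lower at an unadjusted p under 0.05. The members' median log2 ratio was 0.23, against 0.03 over all tested genes. NFKBIA stood at 19.8 FPKM in KO and 12.3 in WT cells, a log2 ratio of 0.69 in the authors' deposited table (q = 0.000173). NFKBIE stood at 17.1 FPKM in KO and 11.4 in WT cells, a log2 ratio of 0.58 in the authors' deposited table (q = 0.000173). NFKB1 stood at 19.6 FPKM in KO and 13.6 in WT cells, a log2 ratio of 0.53 in the authors' deposited table (q = 0.000173). These are 3 of the 4 members called in control, and the other one, RELA, had 59.7 FPKM in KO and 59.0 in WT cells (log2 0.02, q = 0.856 in the authors' deposited table). NFKBIB stood at 33.5 FPKM in KO and 27.9 in WT cells, a log2 ratio of 0.27 in the authors' deposited table (q = 0.000335). NFKB2 stood at 66.9 FPKM in KO and 58.1 in WT cells, a log2 ratio of 0.20 in the authors' deposited table (q = 0.000173). The remaining members were not called. RELB had 14.2 FPKM in KO and 14.9 in WT cells (q = 0.419 in the authors' deposited table), TNFAIP3 had 1.44 in KO and 1.99 in WT cells (q = 0.393 in the authors' deposited table), and REL had 0.708 in KO and 0.603 in WT cells (q = 0.460 in the authors' deposited table).

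**Figure D4:**
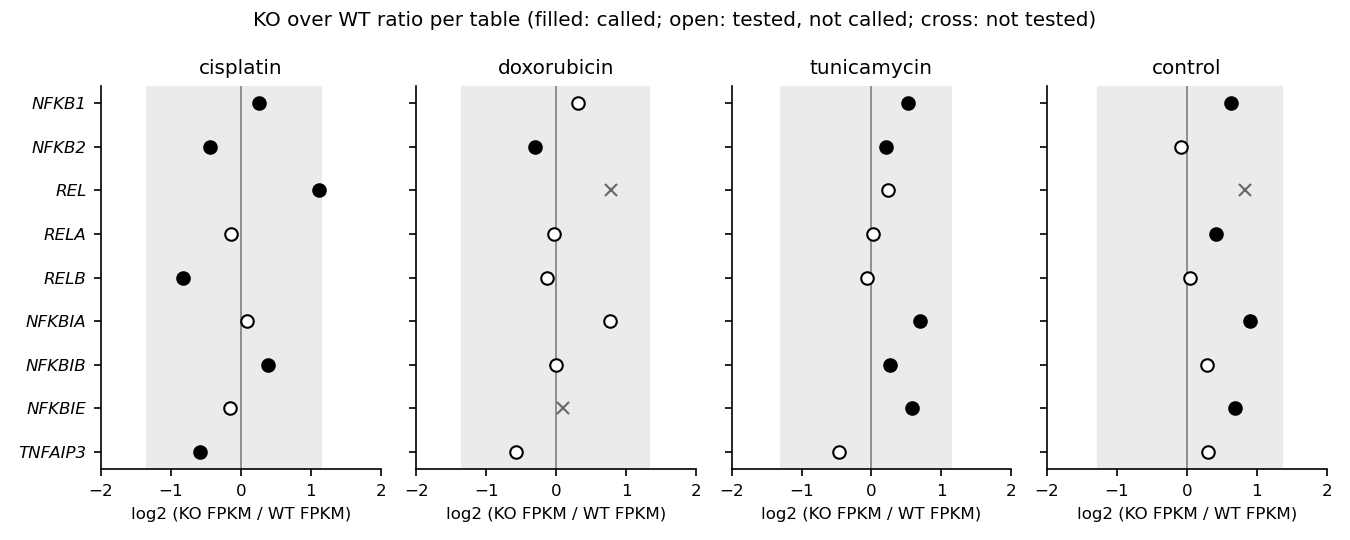
The log2 ratio of KO over WT FPKM of each member, 1 panel per treatment. Filled points were called by the authors' test, open points were tested and not called, crosses were not tested, and the grey band spans the 5th to 95th percentile of all tested genes. In cisplatin the called points lie on both sides of 0, and in tunicamycin and control all called points lie above it.

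NFKB1, NFKBIA and REL had log2 ratios above 0 in all 4 treatments, called in 3 of them for NFKB1, in 2 for NFKBIA and in 1 for REL. NFKB2 was called in 3 treatments in both directions, lower on cisplatin and doxorubicin and higher on tunicamycin. The question of a drug effect that depends on BMAL1 was read as the log2 ratio of KO over WT under a drug minus that in control. The 3 differences share the control groups and have no error, so no test was made. For cisplatin the difference was -0.89 for TNFAIP3, -0.87 for RELB, -0.85 for NFKBIE, -0.82 for NFKBIA, -0.57 for RELA, -0.37 for NFKB1 and -0.36 for NFKB2. Only NFKBIB, at 0.09, was above 0 among the 8 members tested in both tables, so 7 of 8 were below 0, against 51.5% of the 11980 genes of mean FPKM 1 or more tested in both. The members' median was -0.70, against -0.02 over all genes, whose 5th to 95th percentile ran between -1.19 and 0.86. Each member by itself thus lay within the range of most genes. For doxorubicin 7 of 7 were below 0, against 49.6% of 10689 genes, with a median of -0.30 against 0.01. The values were -0.88 for TNFAIP3, -0.46 for RELA, -0.31 for NFKB1, -0.30 for NFKBIB, -0.21 for NFKB2, -0.18 for RELB and -0.13 for NFKBIA. The order of the low members depended on the pseudocount, since with 1 FPKM added to each value NFKBIA was at -0.57 and TNFAIP3 at -0.41. For tunicamycin 7 of 8 were below 0, against 49.2% of 12031 genes, with a median of -0.11 against 0.01. Here TNFAIP3 was at -0.77, RELA at -0.41, NFKBIA at -0.21, NFKBIE at -0.11, RELB at -0.11, NFKB1 at -0.10 and NFKBIB at -0.03, and NFKB2 alone was above 0, at 0.29. With 1 FPKM added TNFAIP3 was at -0.46 on tunicamycin and -0.66 on cisplatin. REL, not tested in control and so left out of these counts, was at 0.28 on cisplatin, -0.06 on doxorubicin and -0.60 on tunicamycin. NFKBIE, not tested on doxorubicin, was at -0.60 there. The same control ratio enters all 3 differences of a member.

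The response to each drug within a genotype was described across tables that the authors normalized separately, as log2 of FPKM plus 1 under the drug over FPKM plus 1 in control, with no test. The pseudocount of 1 understates the change of low genes. On cisplatin TNFAIP3 and NFKBIB had the largest responses in both genotypes. TNFAIP3 had 4.03 FPKM on cisplatin against 1.44 in control in KO cells, a response of 1.04, and 6.06 against 1.17 in WT cells, a response of 1.70. That WT value was above those of 98.6% of the 12345 genes of mean FPKM 1 or more. NFKBIB had 79.3 FPKM on cisplatin against 28.3 in control in KO cells, a response of 1.45, and 60.8 against 23.1 in WT cells, a response of 1.36. It was the member whose cisplatin response was closest between genotypes. RELA had responses of 0.59 in KO and 1.15 in WT cells, RELB of 0.04 in KO and 0.85 in WT cells, and NFKBIE of 0.30 in KO and 1.10 in WT cells. NFKBIA had -0.47 in KO and 0.32 in WT cells, NFKB1 -0.33 in KO and 0.02 in WT cells, and NFKB2 0.44 in KO and 0.79 in WT cells. In REL, as in NFKBIB, the KO value was the larger, with 0.66 in KO and 0.35 in WT cells. Of the 8 members of mean FPKM 1 or more, 2 reached a 2-fold higher level on cisplatin in KO cells, against 4.97% of such genes, and 4 did in WT cells, against 6.31%. The median response of the 9 members was 0.44 in KO and 0.85 in WT cells, against 0.12 in KO and 0.10 in WT cells over all such genes.

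On doxorubicin NFKBIA and NFKBIE stood under 1 FPKM in both genotypes. NFKBIA had 0.835 FPKM on doxorubicin against 37.7 in control in KO cells and 0.489 against 20.1 in WT cells. Without a pseudocount these are levels 45.1-fold lower in KO and 41.2-fold lower in WT cells. The responses of -4.40 in KO and -3.83 in WT cells lay above those of only 0.437% of genes in KO and 1.18% in WT cells. NFKBIE had 0.371 FPKM on doxorubicin against 17.2 in control in KO cells, a response of -3.73, and 0.347 against 10.7 in WT cells, a response of -3.12. RELA had 8.67 FPKM on doxorubicin against 51.4 in control in KO cells, a response of -2.44, and 8.89 against 38.3 in WT cells, a response of -1.99. RELB had -1.88 in KO and -1.75 in WT cells, and NFKB1 had -1.70 in KO and -1.37 in WT cells. These 5 members reached a 2-fold lower level in both genotypes, as did 42.1% of genes of mean FPKM 1 or more in KO and 40.9% in WT cells, whose median response was -0.73 in KO and -0.69 in WT cells. NFKBIB stood against this shift, with 38.0 FPKM on doxorubicin against 28.3 in control in KO cells, a response of 0.41, and 38.3 against 23.1 in WT cells, a response of 0.70. After scaling by median-of-ratios factors its response was 0.51 in KO and 0.87 in WT cells. The FPKM summed over all genes was 949136 in KO and 820675 in WT cells on doxorubicin. In control cells it was 696343 in KO and 687900 in WT cells. No response was rescaled to these sums, so the size of a rise depends on the scale. NFKB2 had -0.25 in KO and -0.05 in WT cells, and the WT value was 0.12 after scaling by median-of-ratios factors. TNFAIP3 had -0.63 in KO and -0.22 in WT cells, and REL had -0.55 in KO and -0.35 in WT cells, both from levels of 1.44 FPKM or less. Without a pseudocount REL was at -2.09 in KO and -2.03 in WT cells, and TNFAIP3 at -1.31 in KO and -0.43 in WT cells. Transcripts of the 13 mitochondrial mRNAs took 9.37% of all FPKM in KO and 9.71% in WT cells on doxorubicin, against 3.62% in KO and 4.95% in WT control cells, and the part of this in the low values was not tested. In bulk RNA, fewer cells with a transcript and less of it per cell cannot be told apart.

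On tunicamycin no member of mean FPKM 1 or more reached a 2-fold difference from control in either genotype. Of such genes 3.20% did so upward and 1.92% downward in KO cells, and 4.03% upward and 1.96% downward in WT cells. NFKBIA was the member furthest below control, with 19.8 FPKM on tunicamycin against 37.7 in control in KO cells, a response of -0.89, and 12.3 against 20.1 in WT cells, a response of -0.67. NFKB2 had 66.9 FPKM on tunicamycin against 43.3 in control in KO cells, a response of 0.62, and 58.1 against 45.9 in WT cells, a response of 0.33. RELA had 0.21 in KO and 0.61 in WT cells, RELB 0.36 in KO and 0.47 in WT cells, and NFKBIB 0.23 in KO and 0.26 in WT cells. NFKB1 had -0.03 in KO and 0.07 in WT cells, NFKBIE -0.01 in KO and 0.09 in WT cells, and REL -0.00 in KO and 0.20 in WT cells. TNFAIP3 had -0.00 in KO and 0.46 in WT cells. After scaling by median-of-ratios factors the KO values of NFKB1 (0.015), NFKBIE (0.035), REL (0.017) and TNFAIP3 (0.027) were above 0. In WT cells the scaled values were 0.21 for NFKB1, 0.23 for NFKBIE, 0.40 for NFKBIB and 0.48 for NFKB2.

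**Figure D5:**
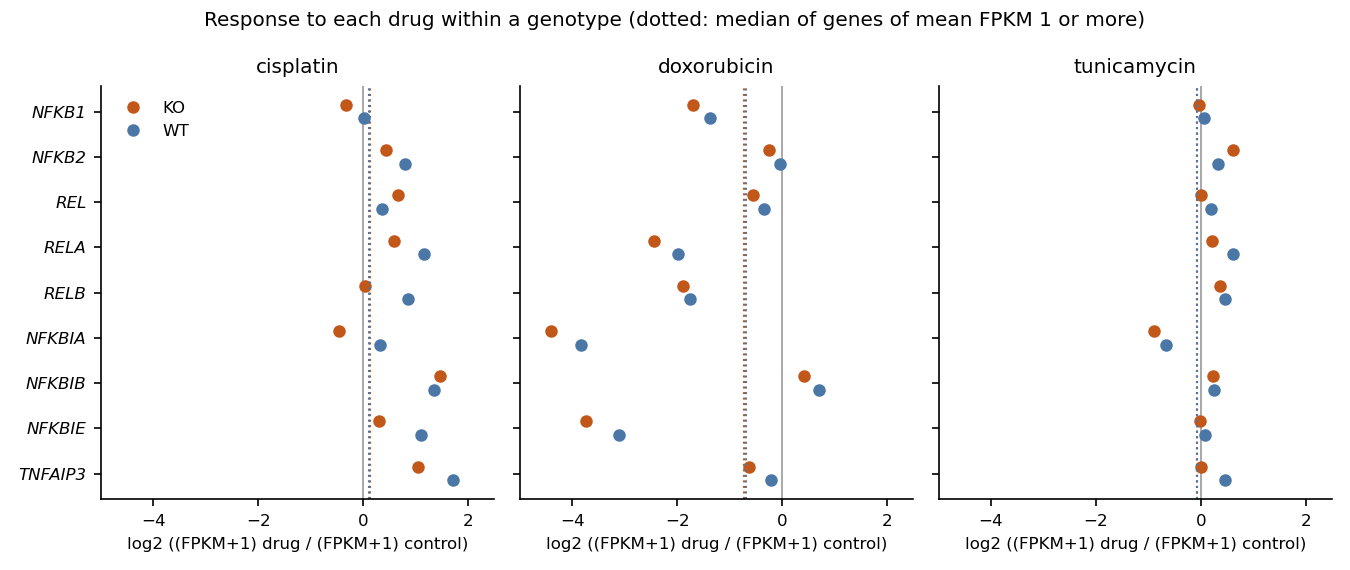
Response of each member to each drug within KO cells (orange) and WT cells (blue), as log2 of FPKM plus 1 under the drug over FPKM plus 1 in control. Dotted lines mark the median over 12345 genes of mean FPKM 1 or more. On doxorubicin NFKBIA and NFKBIE lie between -4.40 and -3.12, while NFKBIB lies above 0 in both genotypes.

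Over all groups the levels of RELA, RELB, NFKB1, NFKBIA and NFKBIE ran in parallel and those of NFKBIB did not, but this rested on doxorubicin. Over the 8 groups, which share depth and normalization within a table, Pearson's r of log2 of FPKM plus 1 was 0.988 between RELA and NFKBIE, 0.979 between NFKBIA and NFKBIE, 0.973 between RELA and RELB, and 0.958 between NFKB1 and NFKBIA. NFKBIB had r of -0.03 with NFKB1, 0.07 with NFKBIA, 0.08 with RELB and 0.18 with NFKBIE, and its highest was 0.70 with TNFAIP3. Without the 2 doxorubicin groups, a choice made after seeing the data, r over the 6 others was 0.84 between RELA and NFKBIE, 0.62 between NFKBIA and NFKBIE, 0.65 between RELA and RELB, and 0.50 between NFKB1 and NFKBIA. Among the same 5 genes it was 0.13 between RELA and NFKBIA, -0.05 between NFKB1 and RELA, -0.30 between RELB and NFKBIA, and -0.32 between NFKB1 and RELB. NFKBIB then had 0.89 with RELA, 0.85 with NFKBIE and 0.32 with NFKBIA, so its separation from RELA and NFKBIE rested on doxorubicin. Genes across the tables with levels like those of the set were many, 1973 of 10176 genes having r of 0.95 or more with NFKBIE, 1594 with RELA, 1591 with NFKBIA, 850 with RELB and 557 with NFKB1. For NFKBIB there were 3 and for NFKB2 there were 0. The nearest 2 genes were NME6 (0.998) and PPP2CA (0.998) for NFKBIE, YLPM1 (0.997) and RPUSD1 (0.997) for NFKBIA, ZNF777 (0.997) and RHOF (0.997) for RELA, and ARHGEF7 (0.997) and ADSL (0.995) for NFKB1. They were ZNF134 (0.992) and ITPRIP (0.991) for RELB, RAB2B (0.983) and COQ9 (0.981) for REL, CYP2S1 (0.980) and CDR2L (0.979) for TNFAIP3, RHOT2 (0.976) and WDR90 (0.966) for NFKBIB, and SEPT5 (0.941) and SLC16A5 (0.940) for NFKB2.

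The genes around the members were read as well. The coordinates are those of the authors' tables on GRCh38, each holding the whole protein-coding gene with its exons, introns and UTRs. NFKBIA lies at chr14:35401511-35404749, NFKBIE at chr6:44258166-44265788 and RELA at chr11:65653596-65663094, all on the minus strand. On the plus strand lie NFKB1 at chr4:102501329-102617302, NFKB2 at chr10:102394110-102402529, REL at chr2:60881521-60931610, RELB at chr19:45001430-45038198, NFKBIB at chr19:38878555-38908893 and TNFAIP3 at chr6:137823673-137883312. The spans given for NFKBIB and TNFAIP3 reach further upstream than the genes themselves, which start in GENCODE v29 at 38899700 and 137867188. NFKBIB overlaps SIRT2, a deacetylase gene on the other strand. Whether counting respected strand is unknown, and fragments from the stretch that both genes share therefore cannot be told apart. This does not apply to fragments outside that stretch, whose length was not measured. SIRT2 stood at 26.1 FPKM in KO and 32.8 in WT cells on cisplatin, 29.0 in KO and 31.3 in WT cells on doxorubicin, 15.0 in KO and 21.9 in WT cells on tunicamycin, and 17.5 in KO and 20.0 in WT control cells, below the WT value in each KO group while NFKBIB was above it in all but doxorubicin. The antisense gene over TNFAIP3 and the snRNA gene RNU4-51P within REL were listed at 0 in all groups. RELA is also overlapped by the noncoding gene AP001362.2 on the other strand, and REL by the noncoding gene AC010733.2 on its own strand. No level was read for either of these noncoding genes. Tested genes of 1 FPKM or more within 5 Mb of TNFAIP3 had median log2 ratios of KO over WT of -0.44 in cisplatin, -0.21 in doxorubicin, -0.42 in tunicamycin and -0.75 in control. TNFAIP3 itself had log2 ratios of -0.59 in cisplatin, -0.58 in doxorubicin, -0.47 in tunicamycin and 0.30 in control, near its neighbours' median in cisplatin and tunicamycin and of opposite sign in control. Around REL the medians were -0.11 in cisplatin, -0.40 in doxorubicin, -0.23 in tunicamycin and -0.46 in control, below the ratios of REL. Around NFKBIA they were 0.36 in cisplatin, 0.27 in doxorubicin, 0.31 in tunicamycin and 0.00 in control, where NFKBIA itself was at 0.90. Around the other 6 members they lay between -0.17 and 0.28.

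The rest of the pathway was counted in 5 lists. Of 22 genes of receptors and adaptors, which carry the signal in, on cisplatin KO cells had 9 called higher and 5 lower, 2 higher and 2 lower of 14 tested on doxorubicin, 9 higher and 4 lower on tunicamycin, and 11 higher and 1 lower in control. Of all tested genes, 25.4% were called higher and 24.2% lower on cisplatin, and 24.4% higher and 20.7% lower on doxorubicin. The shares were 27.2% higher and 22.1% lower on tunicamycin, and 22.7% higher and 21.1% lower in control. How many of all genes were called in 1 direction in all 4 tables was not counted, for this list or the others. The list's median log2 ratio was 0.09 in cisplatin, -0.11 in doxorubicin, 0.23 in tunicamycin and 0.51 in control, beside medians of all tested genes between 0.01 and 0.04. CD40, a receptor of the alternative and classical pathways, and TNFRSF1A, the main receptor for TNF, were called higher in all 4 tables. CD40 stood at 62.4 FPKM in KO and 38.4 in WT cells on cisplatin, 31.5 in KO and 17.7 in WT cells on doxorubicin, 26.5 in KO and 17.8 in WT cells on tunicamycin, and 29.9 in KO and 16.5 in WT control cells. TNFRSF1A stood at 72.2 FPKM in KO and 60.0 in WT cells on cisplatin, 1.58 in KO and 0.796 in WT cells on doxorubicin, 101 in KO and 58.6 in WT cells on tunicamycin, and 109 in KO and 68.1 in WT control cells. Its doxorubicin call had q = 0.0494 in the authors' deposited table, and at a q of 0.01 it was lost and the list's doxorubicin calls went down to 2 of the 4. Both receptors therefore differed in the direction of NFKBIA in control and tunicamycin. TLR3, which senses double-stranded RNA, had the largest called ratio of the list in control, with 2.85 FPKM in KO and 0.418 in WT cells (log2 2.77, q = 0.000213 in the authors' deposited table). IL1R1, the receptor of interleukin-1, had 1.88 FPKM in KO and 0.502 in WT control cells (log2 1.90, q = 0.000407 in the authors' deposited table). BIRC2, which encodes the ubiquitin ligase cIAP1, was lower in control, with 37.5 FPKM in KO and 70.3 in WT cells (log2 -0.91, q = 0.000213 in the authors' deposited table). TRAF2, its adaptor, was lower on cisplatin, with 18.2 FPKM in KO and 33.1 in WT cells (log2 -0.87, q = 0.000167 in the authors' deposited table). TNFRSF12A, the receptor of TWEAK, was lower on doxorubicin, with 4.45 FPKM in KO and 20.3 in WT cells (log2 -2.19, q = 0.000186 in the authors' deposited table). These calls were not particular to 1 treatment. On tunicamycin BIRC2 (log2 -0.19), TRAF2 (log2 -0.63) and TNFRSF12A (log2 -0.21) were also called lower. On cisplatin TNFRSF12A was called lower too (log2 -0.34). TLR3 and IL1R1 were also called higher on cisplatin and tunicamycin.

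Of the 12 IKK and upstream kinase genes, 3 were called higher and 4 lower on cisplatin, 2 higher and 3 lower of 10 tested on doxorubicin, 4 higher and 2 lower on tunicamycin, and 3 higher and 2 lower in control. Shares over all tested genes were 25.4% higher and 24.2% lower on cisplatin, and 24.4% higher and 20.7% lower on doxorubicin. They were 27.2% higher and 22.1% lower on tunicamycin, and 22.7% higher and 21.1% lower in control. The list's median log2 ratio was -0.08 in cisplatin, -0.37 in doxorubicin, -0.03 in tunicamycin and -0.06 in control. IKBKG, the regulatory subunit NEMO of IKK, was higher in all 4 tables, with 12.5 FPKM in KO and 8.33 in WT cells on cisplatin, 8.90 in KO and 5.18 in WT cells on doxorubicin, 16.1 in KO and 6.17 in WT cells on tunicamycin, and 14.9 in KO and 6.88 in WT control cells. A near-identical pseudogene copy of IKBKG makes its counts uncertain. TAB2 and MAP3K3, which act above IKK, were lower in all 4 tables. On doxorubicin MAP3K3 had q = 0.0477 in the authors' deposited table, and at a q of 0.01 this call was lost and 3 of the list's 5 doxorubicin calls were left. TAB2 had 19.2 FPKM in KO and 28.0 in WT cells on cisplatin, 4.21 in KO and 8.98 in WT cells on doxorubicin, 19.2 in KO and 28.1 in WT cells on tunicamycin, and 19.4 in KO and 30.3 in WT control cells. MAP3K14 encodes NIK, the kinase that starts p100 processing, and it was higher in control, with 13.3 FPKM in KO and 6.09 in WT cells (log2 1.13, q = 0.000213 in the authors' deposited table). It was also called higher on tunicamycin, with 9.82 FPKM in KO and 7.30 in WT cells (log2 0.43, q = 0.000173 in the authors' deposited table). On cisplatin MAP3K14 had 12.0 in KO and 12.9 in WT cells and was not called (q = 0.201 in the authors' deposited table).

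Of 20 other inhibitors and modifiers, 5 were called higher and 6 lower of 19 tested on cisplatin, 2 higher and 2 lower of 15 on doxorubicin, 8 higher and 3 lower of 19 on tunicamycin, and 2 higher and 3 lower of 19 in control. Shares over all tested genes were 25.4% higher and 24.2% lower on cisplatin, and 24.4% higher and 20.7% lower on doxorubicin. They were 27.2% higher and 22.1% lower on tunicamycin, and 22.7% higher and 21.1% lower in control. The list's median log2 ratio was -0.05 in cisplatin, -0.05 in doxorubicin, 0.22 in tunicamycin and 0.19 in control. ZC3H12A, which encodes the RNase Regnase-1, was higher in all 4 tables at low levels, such as 1.23 FPKM in KO and 0.254 in WT control cells. TAX1BP1, an adaptor of A20, was lower in all 4, with 31.3 FPKM in KO and 51.3 in WT cells on cisplatin, 40.7 in KO and 64.6 in WT cells on doxorubicin, 37.9 in KO and 60.3 in WT cells on tunicamycin, and 29.2 in KO and 53.2 in WT control cells. TNIP1, another partner of A20, was higher in control, with 92.7 FPKM in KO and 57.7 in WT cells (log2 0.68, q = 0.000213 in the authors' deposited table). It was also called higher on tunicamycin (log2 0.63) and, by a small ratio, on cisplatin (log2 0.08). BCL3, a nuclear IkB that binds p50 and p52, was lower on cisplatin, with 7.41 FPKM in KO and 11.7 in WT cells (log2 -0.66, q = 0.000167 in the authors' deposited table). It was also called lower on tunicamycin, with 2.29 FPKM in KO and 4.37 in WT cells (log2 -0.93, q = 0.000173 in the authors' deposited table).

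Known targets of NF-kB were called in both directions. Tested cytokine targets had the highest median log2 ratio of the 5 lists in each treatment, a ranking that depends on which genes were tested. Of 17 targets of survival and signalling, 6 were called higher and 3 lower of 14 tested on cisplatin, 4 higher and 3 lower of 12 on doxorubicin, 8 higher and 2 lower of 14 on tunicamycin, and 6 higher and 3 lower of 13 in control. The list's median log2 ratio was -0.14 in cisplatin, 0.30 in doxorubicin, 0.39 in tunicamycin and 0.36 in control. PTX3, a secreted pattern-recognition protein, was higher in all 4 tables, with 143 FPKM in KO and 28.5 in WT cells on cisplatin, 90.0 in KO and 21.4 in WT cells on doxorubicin, 282 in KO and 27.8 in WT cells on tunicamycin, and 173 in KO and 22.6 in WT control cells. CD83 and IER3 were also higher in all 4, with IER3 at 171 FPKM in KO and 103 in WT control cells. SOD2, the mitochondrial superoxide dismutase, and BCL2L1, which encodes the survival protein BCL-XL, were lower in all 4. SOD2 had 62.2 FPKM in KO and 86.9 in WT cells on cisplatin, 56.5 in KO and 101 in WT cells on doxorubicin, 37.9 in KO and 60.8 in WT cells on tunicamycin, and 42.0 in KO and 53.0 in WT control cells. BIRC3, a classical target that encodes cIAP2, was lower on doxorubicin, with 0.276 FPKM in KO and 1.48 in WT cells (log2 -2.43, q = 0.000186 in the authors' deposited table). It was also called lower on cisplatin (log2 -0.63, q = 0.00265 in the authors' deposited table). Of 15 cytokine targets, 5 were called higher and 2 lower of 9 tested on cisplatin, 4 higher and 2 lower of 9 on doxorubicin, 8 higher and 0 lower of 10 on tunicamycin, and 3 higher and 1 lower of 7 in control. The cytokine list's median log2 ratio was 1.41 in cisplatin, 1.21 in doxorubicin, 2.09 in tunicamycin and 1.60 in control. Medians of all tested genes were between 0.01 and 0.04. In each table, between 20.7% and 27.2% of all tested genes were called in 1 direction. The other cytokine genes were not tested by the authors, so the cytokine counts and medians do not describe the whole list. Some tested genes, such as CSF3, were under 1 FPKM in WT cells, so being tested may itself favour genes high in KO cells. Untested genes lay on both sides in control. CCL5 had 0 FPKM in KO and 0.452 in WT cells, and IL1A had 0.573 in KO and 0.116 in WT cells. IL1B was higher in all 4 tables, with 21.4 FPKM in KO and 0.889 in WT cells on cisplatin, 8.58 in KO and 0.815 in WT cells on doxorubicin, 68.6 in KO and 0.849 in WT cells on tunicamycin, and 12.4 in KO and 1.02 in WT control cells. CSF3, which encodes the granulocyte growth factor, was higher in all 4, with 12.2 FPKM in KO and 0.0962 in WT cells on cisplatin and 15.7 in KO and 0.180 in WT control cells. CXCL8, which encodes interleukin-8, was called lower in 3 tables. It had 11.3 FPKM in KO and 25.3 in WT cells on cisplatin (log2 -1.16, q = 0.000167 in the authors' deposited table), 8.46 in KO and 17.5 in WT cells on doxorubicin (log2 -1.05, q = 0.000186), and 8.48 in KO and 20.4 in WT control cells (log2 -1.26, q = 0.000213). IL6, which encodes interleukin-6, was lower on cisplatin, with 5.19 FPKM in KO and 7.71 in WT cells (log2 -0.57, q = 0.0194 in the authors' deposited table), and on doxorubicin, with 2.16 in KO and 6.84 in WT cells (log2 -1.66, q = 0.000186). TNF itself did not exceed 0.0449 FPKM in any group.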

How the data were processed

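RNA-seq libraries of 16 samples, 2 biological replicates in each of 8 groups, were made from mRNA and sequenced paired-end on an Illumina HiSeq, per the labels' protocols, which speak of fibroblasts while the cell line label names MDA-MB-231. FastQC 0.11.5, Trimmomatic 0.35, STAR 2.5.3, Cufflinks and Cuffdiff and build hg38 are named in the submitters' processing notes; the sources used here give neither annotation release nor use of strand, and no doses or times. Per the file headers, the authors deposited 4 Cuffdiff tables, 1 per treatment, with 1 FPKM per genotype made from both replicates, so no SD, refit or test across libraries was possible. The deposited log2 column is the plain ratio of KO to WT FPKM, and for tested genes a ratio recomputed here differed from it by at most 4.64e-05 in all 4 tables. The score deposited by the authors is Cuffdiff's test statistic, and their p-values, 5e-05 at the smallest, were adjusted within a table to the deposited q-values. All tests are the authors' own and measure the spread Cuffdiff estimated between replicates, whose independence the labels state only as biological replicates.

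A gene was called where tested with q of at most 0.05. Tables were normalized separately, so drug responses within a genotype (pseudocount 1) and differences of ratios between treatments are descriptions. Depth per library is unknown. As a rough guide, the lowest nonzero levels of WT control (5th percentile) divided by those of a group gave 1.62 for KO and 2.05 for WT in cisplatin, 2.22 for KO and 2.74 for WT in doxorubicin, 1.76 for KO and 1.84 for WT in tunicamycin, and 1.35 for KO control. The members and the gene lists were chosen with earlier results of these data known. Named were all members and, of each list, up to 3 genes called in 1 direction in all 4 tables and up to 2 called per table and direction with the largest ratios and 1 FPKM in 1 group, of which the text gives a part, and TNF was added after its values were seen. Genes with levels like a member's were the 2 of highest Pearson r among those of 5 FPKM in 1 group. Overlapping genes were taken from GENCODE v29 (GRCh38), and promoters from RefSeq windows of 300 bases. Python 3.11.15, NumPy 2.4.6, pandas 2.3.3 and Matplotlib 3.10.9 were used, and the scripts were tested on simulated data. Alternatives were other thresholds, filters, pseudocounts, scalings and window sizes.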

Additional observations from a re-analysis of the deposited data

Results flagged for a closer look

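Genes called in opposite directions under different treatments stood out, and for each of them the difference between treatments was not tested. Among the members this was NFKB2, which encodes p100, with a log2 ratio of KO over WT of -0.45 in cisplatin, -0.30 in doxorubicin and 0.20 in tunicamycin. The tunicamycin ratio came from 66.9 FPKM in KO and 58.1 in WT cells and was the smallest of the 3 in size.

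Of the other pathway genes, TRAF3, the adaptor that keeps NIK low and so restrains processing of p100, had ratios of -0.36 in cisplatin, -0.51 in doxorubicin, 0.31 in tunicamycin and 0.62 in control. CHUK, the IKK subunit that drives p100 processing, had 0.39 in cisplatin and -1.02 in doxorubicin. PDLIM2, which promotes the turnover of nuclear RELA, had -0.24 in cisplatin and 0.50 in tunicamycin. RBCK1, a subunit of the linear ubiquitin ligase complex, had -0.15 in cisplatin and 0.40 in tunicamycin. No value per library was given, so no single sample could be set against the others of its group.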

How the results depend on the processing

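No paired analysis was possible because the tables hold no value per library, and for the same reason leaving out a replicate was not run. At a q of at most 0.01 the count of called members was within 1.5 times the main count in each table, with TNFAIP3 on cisplatin the only member call lost. Asking also for a log2 ratio of 1 in size left 1 called member on cisplatin (REL) and 0 on doxorubicin, tunicamycin and control, by the construction of that bound. Centring each table on its median turned RELA on tunicamycin, which was not called, to -0.017. The members' median response to doxorubicin was -1.85 in KO and -1.54 in WT cells with a pseudocount of 0.1, and -2.09 in KO and -2.03 in WT cells with none. With no pseudocount that to cisplatin in WT cells was 0.98. After scaling by median-of-ratios factors the WT median was -1.22 on doxorubicin and 0.40 on tunicamycin, and the median range of a member over the groups was 8.95-fold. The cause of these shifts was not tested. A filter at 1 FPKM and windows of 2 or 10 Mb left the counts of called members and of shifted windows within 1.5 times. Without the doxorubicin groups 32 of 36 correlations between members moved by more than 0.1. Levels under 1 FPKM, as in REL and in NFKBIA and NFKBIE on doxorubicin, are where the unknown depth limits most.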
